A study of Bos indicus x Bos taurus with 45 samples.

Results

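The miR-15 and miR-16 family was followed across fetal tissues of cattle with and without large offspring syndrome (LOS), a fetal overgrowth condition seen in ruminants after assisted reproduction. Its members were taken by name, as every entry of the 4 count tables called miR-15a, miR-15b, miR-16a, miR-16b, miR-195 or miR-497, on either arm of the hairpin precursor. The rule found 9 entries among the 603 microRNAs (miRNAs) listed in at least 1 table. Of these, 7 were listed in every tissue (bta-miR-15a, bta-miR-15b, bta-miR-15b-3p, bta-miR-16a, bta-miR-16b, bta-miR-195 and bta-miR-497), and bta-miR-16a-3p and bta-miR-16b-3p were listed in liver alone. Small RNA was sequenced from kidney, liver, skeletal muscle and tongue of Bos indicus x Bos taurus fetuses at about day 105 of gestation. LOS fetuses, conceived by assisted reproductive technologies (ART), gave 4 kidney, 4 liver, 4 skeletal muscle and 7 tongue libraries. ART-conceived fetuses labelled healthy gave 4 liver libraries. Healthy controls conceived by artificial insemination gave 4 kidney, 5 liver, 4 skeletal muscle and 9 tongue libraries. The sex is given for tongue, with 3 male and 4 female LOS fetuses and 4 male and 5 female controls. LOS fetuses and controls differ in the conception method as well as in overgrowth, so in kidney, skeletal muscle and tongue these cannot be told apart. Nothing in the labels says whether fetuses shared a dam or sire, so p-values within a tissue measure the spread between the fetuses as labelled. Same-numbered libraries of a group in different tissues are presumed to be from the same fetus. p-values between tissues, and for tissue by LOS, treat them as independent except where a block is named.

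A miRNA is a short RNA that guides repressor proteins to messenger RNAs whose sequence pairs with its seed, a short stretch near its 5′ end. The guide strands of miR-15, miR-16, miR-195 and miR-497 share a seed, and the family is known for repressing cyclins D and E, CDK6, WEE1 and the apoptosis inhibitor BCL2, so that it slows entry into the cell cycle. In human and mouse each miR-15 gene lies beside a miR-16 gene, and miR-195 and miR-497 are cut from a shared transcript. In mice the family is known for taking heart muscle cells out of the cell cycle around birth. The tables name a separate precursor for each of the 6 members. The guide strands of miR-16a and miR-16b are near copies of each other, and it is unknown how the authors' counting placed reads that fit both. The split between miR-16a and miR-16b is therefore uncertain. Their sum escapes this only if each such read was assigned to a single member, rather than to both or to neither. Whether that was so could not be checked, so sums that include miR-16a and miR-16b carry this limit too.

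Levels are given as CPM, the reads of a miRNA for every 1000000 reads listed in its library. The libraries held between 3379816 and 13822348 listed reads, and the lowest count of any member in any library was 21. Liver carried the marker miRNA of hepatocytes, and skeletal muscle and tongue carried that of striated muscle. miR-122 of hepatocytes was between 14420 and 19630 CPM in liver, at most 29.6 CPM in kidney and skeletal muscle, and not listed in tongue. miR-133a of striated muscle was at least 12200 CPM in skeletal muscle and tongue and at most 169 CPM in kidney and liver. The kidney epithelium miRNAs did not single out kidney. miR-192 and miR-194 averaged 22250 and 551 CPM over kidney libraries and 68920 and 2139 CPM over liver libraries. miR-204 went the other way, at 989 CPM in kidney and 554 CPM in liver. No 2 libraries of a group agreed within counting noise.

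The 2 miR-16 species made up most of the family in every tissue. Their sum took 87.4% ± 1.13 of family reads in control kidney (SD, n = 4), 85.1% ± 0.229 in control liver (n = 5), 85.4% ± 0.464 in control skeletal muscle (n = 4) and 84.8% ± 0.697 in control tongue (n = 9). How that sum split differed by tissue. miR-16b alone took 70.2% ± 1.72 of family reads in control kidney, 63.4% ± 0.498 in liver, 59.2% ± 2.79 in tongue and 53.5% ± 3.24 in skeletal muscle. The ratio of miR-16a to miR-16b reads was 0.246 ± 0.0173 in control kidney, 0.343 ± 0.0107 in liver, 0.436 ± 0.0728 in tongue and 0.600 ± 0.105 in skeletal muscle. The highest kidney control (0.268) lay below the lowest liver control (0.330), and the highest liver control (0.358) lay below the lowest tongue control (0.368), while tongue and skeletal muscle overlapped. miR-15a and miR-15b together took between 8.72% of family reads in control kidney and 12.8% in control liver. miR-195 and miR-497 together took 1.47% in control liver, 3.54% in kidney, 3.92% in tongue and 4.58% in skeletal muscle.

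**Figure D1:**
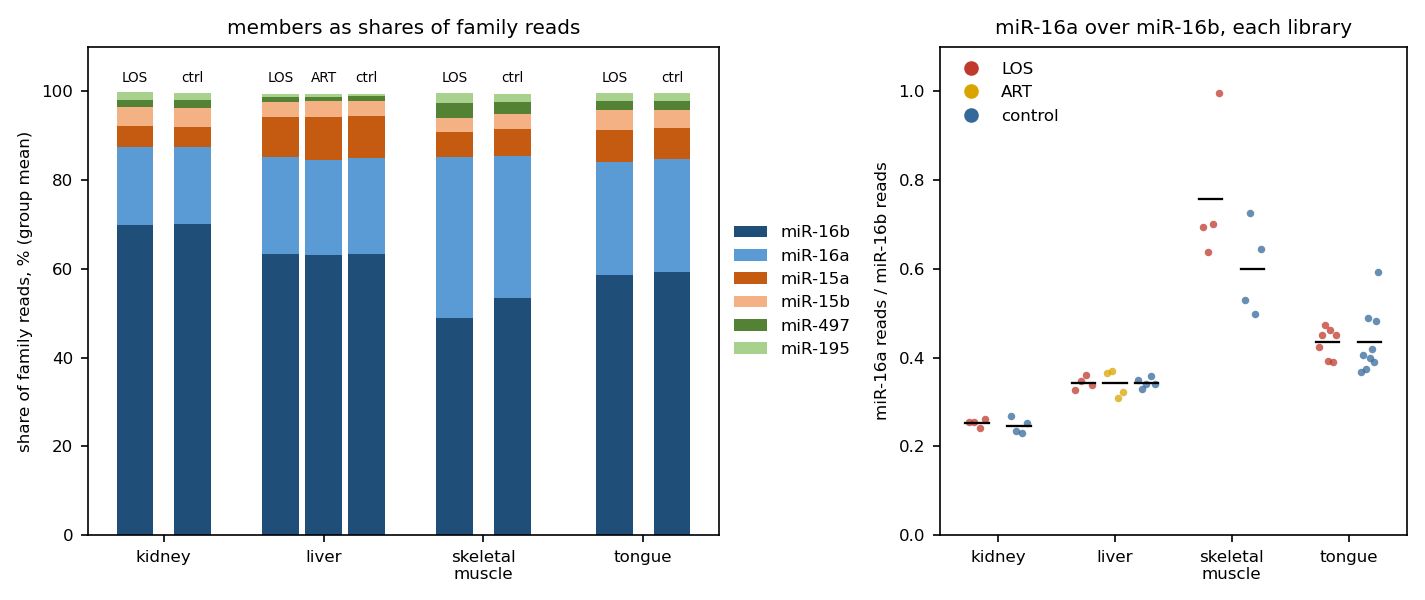
The bars give the mean share of family reads (%) of the 6 guide strands in each tissue and group, and the points give the ratio of miR-16a to miR-16b reads in each library with the group mean as a line. miR-16b and miR-16a fill about the same part of each bar, and their ratio is lowest in kidney (0.253 in LOS and 0.246 in control kidney) and highest in skeletal muscle (0.757 in LOS and 0.600 in control skeletal muscle).

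As a share of all listed reads the family was largest in liver. In controls it summed to 0.817% ± 0.03 in liver, 0.287% ± 0.0390 in tongue, 0.183% ± 0.00367 in kidney and 0.126% ± 0.0195 in skeletal muscle. The lowest liver control (0.782%) was above the highest tongue control (0.355%), and no skeletal muscle control (at most 0.155%) reached the lowest kidney control (0.178%). miR-16b ranked 34th of 563 miRNAs in control liver, 63rd of 436 in kidney, 69th of 460 in tongue and 96th of 439 in skeletal muscle. miR-195 had the lowest mean of the 6 guide strands in the controls of every tissue, just under miR-497 in kidney and tongue, and ranked 324th in liver and 260th in tongue. In these bulk samples fewer cells of a type and less RNA per cell cannot be told apart.

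**Figure D2:**
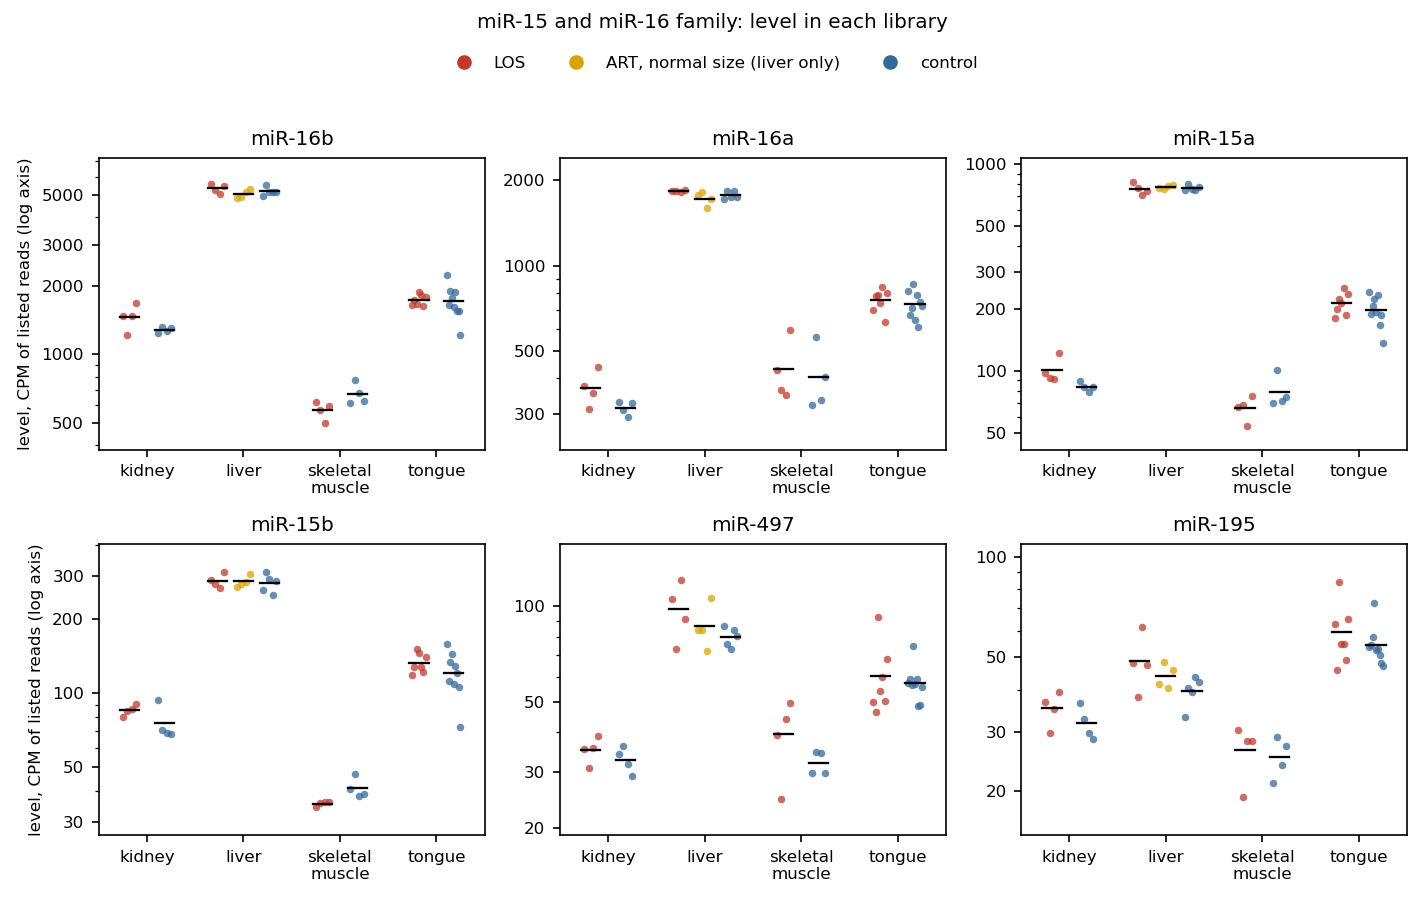
Each point is the level of a guide strand in 1 library, in CPM of listed reads on a log axis, and the lines are group means. For miR-16b, miR-16a, miR-15a and miR-15b every liver library lies above every library of the other tissues, while miR-195 is highest in tongue (54.4 CPM in controls).

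Between tissues the scale matters, because a few abundant miRNAs take different shares of each tissue's reads. edgeR's TMM factors, which set the bulk of miRNAs level between libraries, were between 1.53 and 1.61 in control liver, 0.915 and 1.07 in tongue, 0.741 and 0.810 in skeletal muscle and 0.695 and 0.807 in kidney. Without them the median of all miRNAs moved to 1.08 for liver minus kidney on the log2 scale, against -0.01 with them, and to 0.82 for liver minus skeletal muscle, against -0.19. Differences below are log2 values from edgeR's quasi-likelihood fit with TMM factors on the 374 miRNAs listed in all 4 tables, each followed by its standard error (SE). A call is an adjusted p (Benjamini-Hochberg over those 374) under 0.05. Tongue libraries include males, and the labels give no sex for the other tissues. The submitters' processing notes name cutadapt for tongue alone, so tongue and that step cannot be told apart.

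In liver against kidney, 5 of the 7 members were higher and 1 was lower, where 84.5% of all 374 miRNAs differed. Their median difference was 0.95, and 2.05 with library totals alone, beside all-miRNA medians of -0.01 and 1.08. In liver against skeletal muscle 6 members were higher and 1 was lower, beside 86.1% of all miRNAs, with a median of 1.45. In tongue against liver 1 member was higher and 5 were lower, beside 89% of all miRNAs, with a median of -0.66. In tongue against kidney 4 members were higher and none lower, beside 80.7% of all miRNAs. In tongue against skeletal muscle 6 were higher and none lower, beside 70.6%. In kidney against skeletal muscle 3 were higher and none lower, beside 76.7%. In liver against kidney and in tongue against liver the share of members called was near that of all miRNAs, so the counts there say little about the family. With only 7 members a single call changes the share a lot, and the shares were not compared by a test. The counts of the other comparisons therefore also say little about the family.

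miR-16b, the most abundant member, had 4919, 5120, 5142, 5148 and 5543 CPM in the liver controls. In control tongue it ranged from 1219 to 2217 CPM with a median of 1651. The kidney controls had 1240, 1270, 1299 and 1325 CPM, and the skeletal muscle controls 612, 627, 676 and 769 CPM. Liver stood above the other tissues and skeletal muscle below them with no overlap, and tongue and kidney overlapped. The difference was 0.95 ± 0.11 (SE) for liver minus kidney (adjusted p = 3.26e-08) and 1.02 ± 0.11 for kidney minus skeletal muscle (adjusted p = 3.68e-08). Tongue minus kidney was -0.04 ± 0.10 (adjusted p = 0.722) with TMM factors and 0.42 with library totals alone (adjusted p = 0.000781), so the order of tongue and kidney rests on the scale.

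miR-16a kept the first place of liver but not the rest of the order. It averaged 1775 ± 52.7 CPM in control liver, 730.0 ± 83.4 CPM in tongue, 406 ± 107.6 CPM in skeletal muscle and 315.5 ± 18.02 CPM in kidney. Tongue was above skeletal muscle with no overlap (0.50 ± 0.11, adjusted p = 0.000505). Kidney minus skeletal muscle was -0.28 ± 0.13 (adjusted p = 0.055), and -0.37 with library totals alone (adjusted p = 0.0151), where it passed the test. With miR-16a and miR-16b summed, kidney was above skeletal muscle by 0.65 (adjusted p = 1.29e-05), as for miR-16b.

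miR-15a had the largest difference of the 7 members between liver and kidney and between liver and skeletal muscle. Its liver controls lay between 751 and 797 CPM, tongue between 137 and 240 CPM, kidney between 78.7 and 89.5 CPM and skeletal muscle between 69.8 and 101.1 CPM. Liver was above every other tissue with no overlap, by 2.14 ± 0.13 over kidney (adjusted p = 5.52e-13) and 2.30 ± 0.13 over skeletal muscle (adjusted p = 1.85e-13). Kidney and skeletal muscle overlapped and did not pass the test (0.16 ± 0.13, adjusted p = 0.272). miR-15b was less spread out. It averaged 281 ± 23.7 CPM in control liver, 121 ± 24.9 CPM in tongue, 75.6 ± 12.2 CPM in kidney and 41.3 ± 3.96 CPM in skeletal muscle. Liver minus kidney was 0.84 ± 0.15 (adjusted p = 1.5e-05) and kidney minus skeletal muscle 0.94 ± 0.16 (adjusted p = 1.2e-05). Tongue and kidney overlapped (0.24 ± 0.13, adjusted p = 0.094). With tongue controls 1 to 5 only, which are all female, tongue was higher there (0.37, adjusted p = 0.00491). With the replicate number as a block over controls 1 to 5, tongue minus kidney was 0.39 (adjusted p = 0.00723). The remaining tongue controls are all male, so these refits also change the sex of the tongue group.

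Liver stood out less for miR-195 and miR-497, and miR-195 was highest in tongue, with 47.1 to 72.5 CPM in controls and a median of 53.0 CPM. Its liver controls had 33.1, 39.3, 40.4, 42.1 and 43.8 CPM, the kidney controls 28.5, 29.7, 32.7 and 36.5 CPM and the skeletal muscle controls 21.1, 23.8, 27.1 and 28.9 CPM. Tongue lay above liver with no overlap, and liver and kidney overlapped, as did kidney and skeletal muscle. Tongue minus liver was 1.08 ± 0.11 (adjusted p = 3.23e-09) and kidney minus skeletal muscle 0.41 ± 0.14 (adjusted p = 0.00898). That second call was lost without replicate 1 (adjusted p = 0.0592) or replicate 2 (adjusted p = 0.0571) of the controls. Liver minus kidney was -0.73 ± 0.13 with TMM factors (adjusted p = 1.34e-05) and 0.35 with library totals alone (adjusted p = 0.0111), and liver minus skeletal muscle was -0.32 ± 0.13 with TMM factors (adjusted p = 0.0262) and 0.69 with library totals alone (adjusted p = 2.9e-05). With TMM factors the liver minus skeletal muscle call was lost without replicate 1, 2 or 3 (adjusted p = 0.0542, 0.0676 and 0.0655), and it was lost with RLE factors (-0.18, adjusted p = 0.208). Against kidney, miR-195 was thus lower in liver relative to the bulk of miRNAs and higher as a share of reads. Against skeletal muscle it was higher in liver as a share of reads, and the lower value with TMM factors was not stable. Against tongue it was lower in liver on CPM too.

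miR-497 averaged 80.1 ± 5.47 CPM in control liver, 57.3 ± 7.62 CPM in tongue, 32.8 ± 3.07 CPM in kidney and 32.1 ± 2.72 CPM in skeletal muscle. Tongue was higher than kidney by 0.37 ± 0.11 (adjusted p = 0.00375) and higher than skeletal muscle by 0.47 ± 0.11 (adjusted p = 0.000726). Liver minus kidney was 0.23 ± 0.12 (adjusted p = 0.0828), and it passed without replicate 2 (0.36, adjusted p = 0.0223) and with RLE factors (0.35, adjusted p = 0.00829). Liver was higher than skeletal muscle by 0.34 ± 0.12 (adjusted p = 0.0149), a call lost without replicate 1 (adjusted p = 0.0684). Tongue minus liver was 0.14 ± 0.10 with TMM factors (adjusted p = 0.189) and -0.51 with library totals alone (adjusted p = 8.6e-06). The ratio of miR-195 to miR-497 reads was 0.498 ± 0.0648 in control liver, 0.788 ± 0.105 in skeletal muscle, 0.952 ± 0.0619 in tongue and 0.972 ± 0.0743 in kidney. No liver control (at most 0.535) reached the lowest control of another tissue (0.693).

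**Figure D3:**
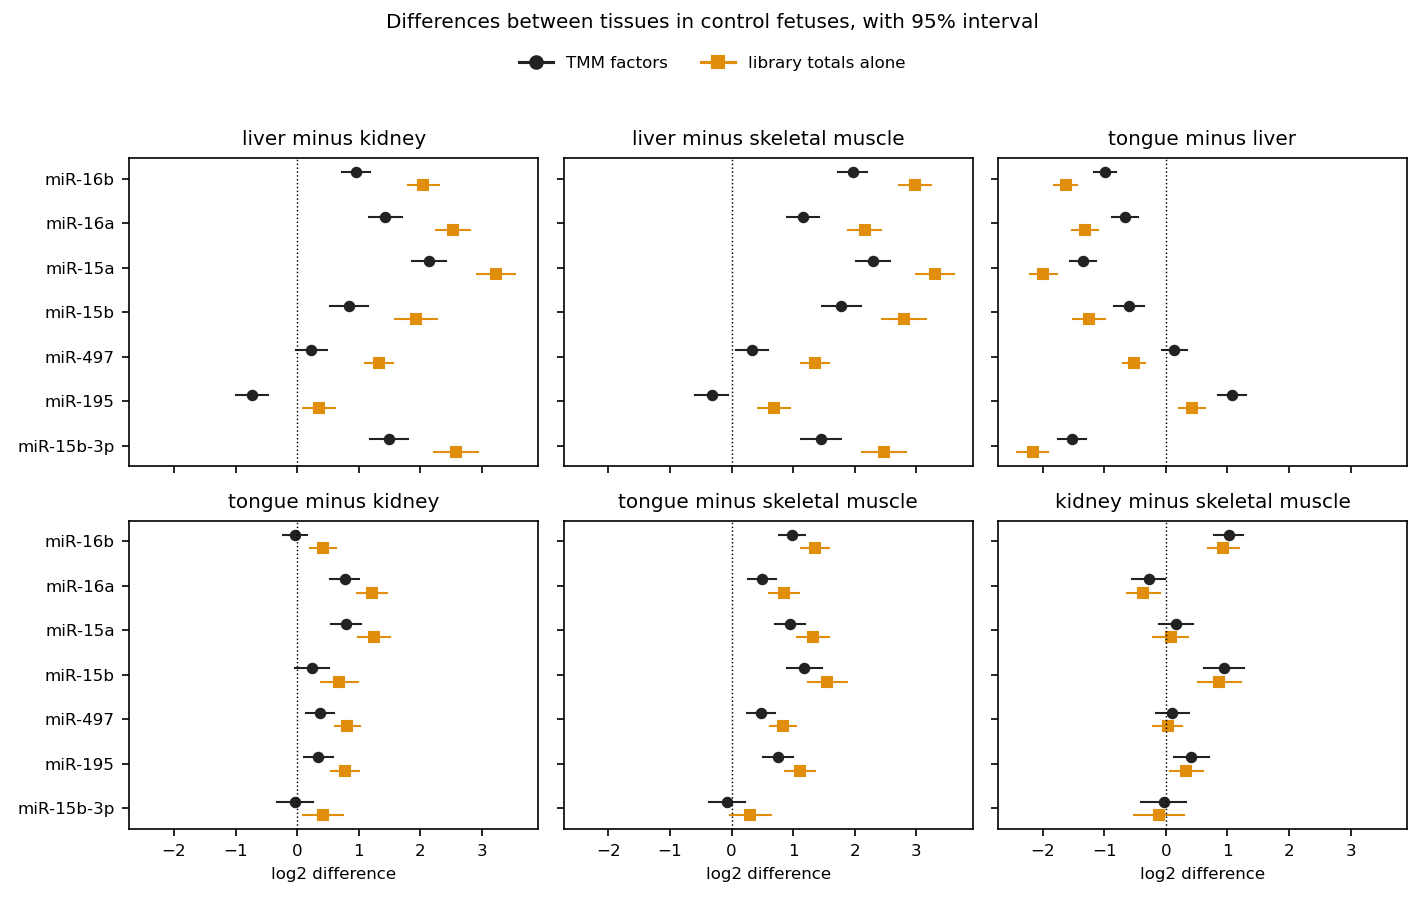
Points are the log2 differences between tissues of control fetuses for 7 members, with 95% intervals as lines, once with TMM factors and once with library totals alone. Both scales place miR-16b, miR-16a, miR-15a, miR-15b and miR-15b-3p higher in liver than in kidney, and miR-195 changes sign there (-0.73 and 0.35).

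The minor arms were rare. miR-15b-3p, cut from the same hairpin as miR-15b, averaged 33.0 ± 2.17 CPM in control liver and between 5.63 and 7.47 CPM in the other tissues. Liver was higher than kidney by 1.49 ± 0.15 (adjusted p = 3.19e-09), and the other 3 tissues overlapped, with tongue minus kidney at -0.04 ± 0.14 (adjusted p = 0.811) and tongue minus skeletal muscle at -0.07 ± 0.14 (adjusted p = 0.669). There were 0.119 ± 0.0134 reads of miR-15b-3p per read of miR-15b in control liver and 0.149 ± 0.03 in skeletal muscle, against 0.0751 ± 0.00595 in kidney and 0.0627 ± 0.0103 in tongue. miR-16a-3p and miR-16b-3p averaged 7.71 ± 1.58 and 9.83 ± 2.38 CPM in control liver.

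Among themselves, miR-15b and miR-16b had the most similar profiles over the 9 groups of tissue and status, with a root mean square difference of 0.163 on the log2 scale after each profile's own mean was taken off. miR-15a and miR-195 were farthest apart, at 1.21. Outside the family, the nearest profiles to miR-16b were miR-17-3p (0.192), miR-22-3p (0.302) and miR-331-3p (0.305), where the median over 367 candidates was 1.08. miR-15b was nearest to miR-106b (0.256), miR-17-3p (0.278) and miR-185 (0.293). miR-15a was nearest to miR-146a (0.215), miR-193a-3p (0.235) and miR-temp45-3p (0.280), a temporary name in the tables. For miR-16a they were miR-temp14-3p (0.112), miR-temp88-5p (0.171) and miR-33a (0.196). miR-195 was nearest to miR-27b (0.152), miR-210 (0.193) and miR-27b-5p (0.197), and miR-497 to miR-148b-5p (0.130), miR-342 (0.143) and miR-545-5p (0.165). These are descriptions of 9 group means that share libraries and scaling.

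miR-424, whose guide strand carries the family seed, and miR-503, a close relative cut from the same transcript, had another tissue order. All 4 of their listed arms were called lower in liver than in kidney, where 84.5% of all 374 miRNAs differed. With TMM factors their median was -2.32, where the family median was 0.95 and that of all miRNAs -0.01. The 4 arms include miR-424-3p and miR-503-3p, so this median is not of seed-carrying strands alone. miR-424-5p averaged 1101 ± 153 CPM over all 8 kidney libraries, 649 ± 120 CPM over the 16 of tongue, 584 ± 49.6 CPM over the 13 of liver and 305 ± 31.8 CPM over the 8 of skeletal muscle. For each read of the family there were 0.594 ± 0.119 reads of miR-424-5p in control kidney, 0.259 ± 0.0280 in skeletal muscle, 0.216 ± 0.0137 in tongue and 0.0687 ± 0.00530 in liver. Kidney was thus the tissue in which this relative came closest to the family as a whole. Other families known for cell cycle targets were listed too. The miR-17 seed family (miR-17, miR-20, miR-93 and miR-106) had 3 of 7 listed arms called higher and 1 lower in liver than in kidney. These counts stand beside the same 84.5% of all miRNAs. miR-34c, the member of the miR-34 and miR-449 family listed in all 4 tables, was lower in liver (-0.75 ± 0.20, adjusted p = 0.0013). miR-34a, listed in 3 tables and so outside that fit, averaged 77.6 ± 15.9 CPM over the 13 liver libraries and 7.96 ± 2.94 CPM over the 8 kidney libraries.

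**Figure D4:**
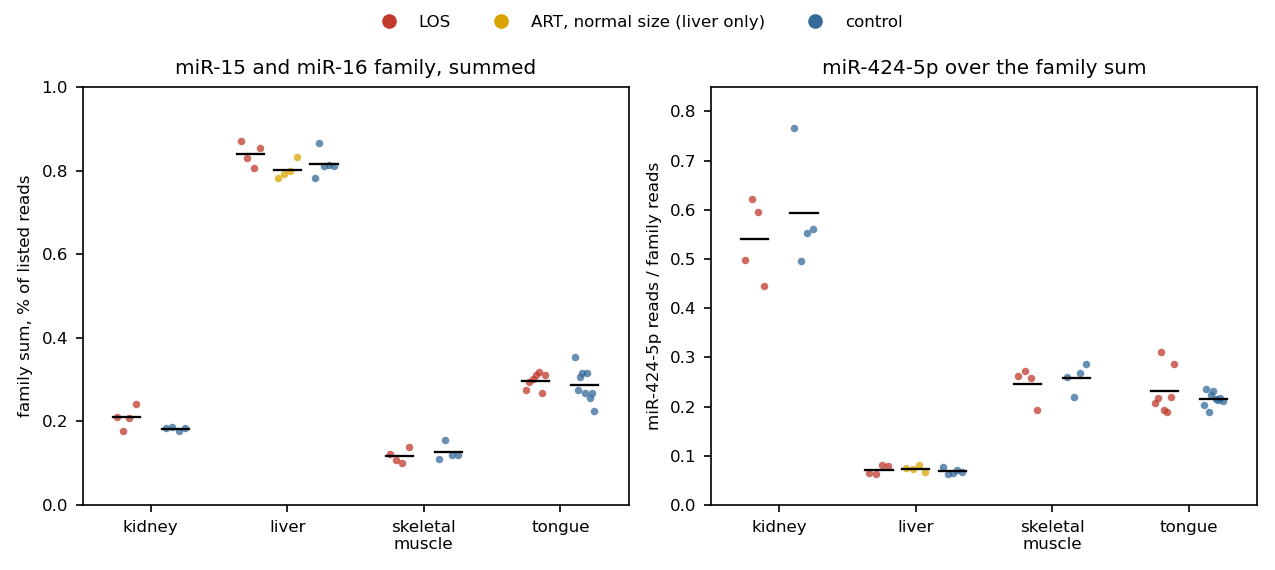
The left panel plots the summed family as a percent of listed reads in each library, and the right panel the reads of miR-424-5p per read of the family, with group means as lines. Liver has the largest family sum (0.840% in LOS, 0.802% in ART and 0.817% in control liver) and the smallest ratio of miR-424-5p (0.0719 in LOS, 0.0741 in ART and 0.0687 in control liver).

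Most markers of blood cells were also higher in liver. The numbers of markers called for liver against kidney stand beside 84.5% of all 374 miRNAs, called in either direction. The 3 shared red cell entries (of miR-451, miR-144 and miR-486) were all higher in liver than in kidney, with a median of 5.12, and over all listed arms they summed to between 56590 and 67260 CPM in liver, 1865 and 3011 CPM in kidney, 34090 and 45360 CPM in skeletal muscle and 14050 and 25220 CPM in tongue. In skeletal muscle that sum was mostly miR-486 (39260 ± 3542 CPM), which muscle also makes, and miR-451 was 110 ± 33.1 CPM there against 13480 ± 725 CPM in liver. White blood cell entries (miR-142, miR-150, miR-155 and miR-223) summed to between 4912 and 5809 CPM in liver and between 211.1 and 448.5 CPM in the other tissues, and miR-223 was listed in liver alone. Of the 4 white cell arms shared by all tables, 3 were higher in liver than in kidney and miR-155 was lower (-0.97 ± 0.11, adjusted p = 1.87e-08), at 158.5 ± 16.2 CPM in liver and 158.7 ± 24.3 CPM in kidney. miR-142-5p made up most of the liver sum (4274 ± 213 CPM). Fetal liver is known as a blood-forming organ. The part of these cells in the family's liver level was not tested.

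In kidney, 6 of the 7 members stood above controls in LOS fetuses, by 0.10 to 0.26 on the log2 scale, but none passed the test across the 436 miRNAs of that table. edgeR called 0% of all 436, and 33 of them and 1 member had an unadjusted p under 0.05. DESeq2 called 3 miRNAs and no member. miR-15a had 91.4, 92.5, 98.0 and 121 CPM in LOS kidneys, against 78.7, 83.5, 83.5 and 89.5 CPM in control kidneys. It was the only member whose groups did not overlap, which held for 4.59% of all miRNAs of the table. The difference was 0.26 ± 0.11 (95% interval 0.02 to 0.51, adjusted p = 0.554). miR-16b had 1220, 1468, 1478 and 1682 CPM in LOS kidneys, against 1240, 1270, 1299 and 1325 CPM in control kidneys, so 3 LOS kidneys lay above every control and 1 lay below them (0.18 ± 0.10, adjusted p = 0.714). miR-16a averaged 370.3 ± 53.2 CPM in LOS kidneys and 315.5 ± 18.02 CPM in control kidneys (0.23 ± 0.11, adjusted p = 0.647), and miR-15b 85.6 ± 4.33 and 75.6 ± 12.2 CPM (0.18 ± 0.10, adjusted p = 0.714).

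LOS kidney 4 was the highest LOS kidney for all 7 members, and without it the difference of miR-15a was 0.16 and that of miR-16b 0.10. The summed family took 0.177%, 0.208%, 0.211% and 0.242% of listed reads in LOS kidneys, against 0.178%, 0.183%, 0.184% and 0.186% in control kidneys. The minor arm miR-15b-3p went the other way, with 4.82 ± 0.844 CPM in LOS kidneys and 5.63 ± 0.574 CPM in control kidneys (-0.23 ± 0.16, adjusted p = 0.798). As a ratio to miR-15b it was 0.0423 to 0.0621 in LOS kidneys and 0.0686 to 0.0811 in control kidneys, with no overlap. It rests on 31 to 50 reads per LOS kidney and 34 to 52 per control kidney, and was singled out after its values were seen. Smooth muscle and fibroblast miRNAs (miR-143, miR-145, miR-199a and miR-214) lay below controls in 7 of 8 entries in LOS kidney with none called, and summed to between 46990 and 52210 CPM in LOS kidneys and 48650 and 67590 CPM in control kidneys. Their part in these differences was not tested.

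In liver the LOS minus control differences were largest for miR-195, miR-497 and the rare arm miR-16a-3p, and within 0.05 of 0 for the other members. edgeR called none of the 9 members for LOS against control, where it called 1.24% of all 563 miRNAs. DESeq2 called none of them among 20 calls. By edgeR 1 member had an unadjusted p under 0.05. How many of all 563 miRNAs did is not given here, so this count says little about the family. miR-16b had 5036, 5258, 5448 and 5574 CPM in LOS livers, 4844, 4895, 5164 and 5314 CPM in ART livers, and 4919 to 5543 CPM in control livers. The 3 groups overlapped, and the LOS minus control difference was 0.03 ± 0.05 with a 95% interval of -0.07 to 0.13. For miR-16a that interval was -0.06 to 0.12 and for miR-15a -0.13 to 0.08. miR-16a-3p had 7.11, 8.99, 9.04 and 10.7 CPM in LOS livers, 6.86, 7.09, 8.08 and 10.1 CPM in ART livers, and 5.86 to 10.1 CPM in control livers. The groups overlapped (0.20 ± 0.17 for LOS minus control, 95% interval -0.17 to 0.58, adjusted p = 0.642), and the values rest on 21 to 45 reads per library.

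miR-195 had 38.0, 47.5, 48.0 and 61.7 CPM in LOS livers, 40.6, 41.7, 45.7 and 48.5 CPM in ART livers, and 33.1 to 43.8 CPM in control livers. In 3 of 4 LOS livers it was above every control (0.29 ± 0.13, 95% interval 0.003 to 0.58, unadjusted p = 0.0477, adjusted p = 0.352). miR-497 had 73.4, 91.4, 105 and 121 CPM in LOS livers and 72.0, 84.0, 84.2 and 106.2 CPM in ART livers, against 73.4 to 86.3 CPM in control livers (0.28 ± 0.14 for LOS minus control, adjusted p = 0.373). The same LOS liver, replicate 3, was highest for both and the same LOS liver, replicate 2, lowest. Without LOS liver 3 the differences were 0.14 for miR-195 and 0.15 for miR-497, and without LOS liver 2 they were 0.40 for both. The ratio of miR-195 to miR-497 was 0.5005 ± 0.0306 in LOS livers, 0.517 ± 0.0672 in ART livers and 0.498 ± 0.0648 in control livers. Smooth muscle and fibroblast miRNAs were above controls in 8 of 8 entries in LOS liver with none called, and summed to between 75410 and 88860 CPM in LOS livers, 66580 and 75780 CPM in ART livers and 58510 and 76860 CPM in control livers. Their part in the miR-195 and miR-497 values was not tested.

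No member passed the test between ART livers of healthy fetuses and control livers, where edgeR called 0% of all 563 miRNAs. There 46 miRNAs and no member had an unadjusted p under 0.05, and DESeq2 called 6 miRNAs and no member. Replicate numbers of ART and control livers deviated together, and with the number as a block 1 miRNA and no member was called. The members' median difference was 0.04, with miR-195 at 0.17 ± 0.13 (adjusted p = 0.786) and miR-497 at 0.13 ± 0.14 (adjusted p = 0.870). No member of these 2 groups was free of overlap, beside 3.02% of all miRNAs, nor was any between LOS and control livers, beside 4.44%. For LOS against ART, edgeR called no member and 2.66% of all miRNAs, and DESeq2 called 27 miRNAs and no member. miR-16a had 1817, 1827, 1828 and 1842 CPM in LOS livers, against 1599, 1710, 1767 and 1814 CPM in ART livers, so that all LOS livers lay just above all ART livers, as for 9.41% of all miRNAs. The difference was small (0.06 ± 0.04, adjusted p = 0.539). miR-15a leaned the other way as a share of the family, with 8.68% to 9.45% in LOS livers and 9.52% to 9.81% in ART livers, without overlap, a share singled out after its values were seen.

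In skeletal muscle the miR-15 members and miR-16b lay below controls in LOS fetuses and miR-16a, miR-195 and miR-497 above them, and none passed the test. edgeR called 0% of all 439 miRNAs there, and 58 miRNAs and no member had an unadjusted p under 0.05. DESeq2 called 10 miRNAs and no member. miR-15b had 34.5, 35.7, 36.1 and 36.3 CPM in LOS muscles, against 38.4, 38.9, 40.8 and 47.0 CPM in control muscles. The groups did not overlap, as for 7.06% of all miRNAs (-0.19 ± 0.12, adjusted p = 0.487). miR-16b had 498, 571, 596 and 618 CPM in LOS muscles, against 612, 627, 676 and 769 CPM in control muscles (-0.21 ± 0.10, 95% interval -0.43 to 0.01, adjusted p = 0.377). Of the LOS muscles, 3 lay below every control. miR-15a averaged 66.3 ± 8.86 CPM in LOS muscles and 79.2 ± 14.8 CPM in control muscles (-0.23 ± 0.15, adjusted p = 0.507), and without control muscle 2, the highest at 101.1 CPM, the difference was -0.07. Control muscle 2 was also the highest control for miR-15b and miR-16b, and without it their differences were -0.096 and -0.12. miR-15b-3p averaged 4.84 ± 0.533 and 6.07 ± 0.879 CPM (-0.30 ± 0.17, adjusted p = 0.429).

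miR-16a had 349, 364, 429 and 593 CPM in LOS muscles, against 324, 337, 404 and 558 CPM in control muscles, with the widest spread of the abundant members (0.12 ± 0.22, adjusted p = 0.821). Its ratio to miR-16b was 0.637, 0.694, 0.700 and 0.995 in LOS muscles, against 0.499, 0.529, 0.644 and 0.726 in control muscles. The groups overlapped, and the highest value came from LOS muscle 4. With both summed, LOS minus control was -0.05 (adjusted p = 0.897). miR-497 averaged 39.4 ± 10.7 CPM in LOS muscles and 32.1 ± 2.72 CPM in control muscles (0.33 ± 0.21, adjusted p = 0.506), and leaving out single libraries gave 0.20 to 0.51. Endothelial miR-126 arms were above controls in 2 of 2 entries in LOS muscle with none called, and summed to between 9608 and 12520 CPM in LOS muscles and 8408 and 9771 CPM in control muscles. Their part in these differences was not tested.

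In tongue, with the most libraries, all 7 members lay above controls in LOS fetuses by small amounts, with a median of 0.09, and none passed the test. edgeR called 0% of all 460 miRNAs in a fit with sex as a term, and 25 miRNAs and no member had an unadjusted p under 0.05. DESeq2 called none. No miRNA of the table (0%) had groups without overlap. miR-16b ranged from 1628 to 1886 CPM in LOS tongues with a median of 1728, and from 1219 to 2217 CPM in control tongues with a median of 1651 (0.01 ± 0.08, 95% interval -0.15 to 0.17). miR-15b ranged from 118 to 151 CPM in LOS tongues with a median of 128, and from 73.1 to 158 CPM in control tongues with a median of 121 (0.12 ± 0.11, adjusted p = 0.915). miR-195 ranged from 45.9 to 84.2 CPM in LOS tongues with a median of 54.97, and from 47.1 to 72.5 CPM in control tongues with a median of 53.0 (0.11 ± 0.12, adjusted p = 0.915). Without LOS tongue 3, the highest at 84.2 CPM, that difference was 0.0222. The LOS range lay within the control range for miR-16b and miR-15b and reached past it at both ends for miR-195.

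Male tongues were slightly below female tongues in all 7 members, with a median of -0.13, and edgeR called none, as it called 0% of all miRNAs for sex. There 62 miRNAs and no member had an unadjusted p under 0.05, and DESeq2 called none. miR-15b was the most different (-0.20 ± 0.11, adjusted p = 0.483). It averaged 130 ± 9.44 CPM in male LOS tongues (n = 3), 107 ± 24.7 CPM in male control tongues (n = 4), 136 ± 15.2 CPM in female LOS tongues (n = 4) and 132 ± 21.0 CPM in female control tongues (n = 5). No member passed edgeR's test of whether the LOS difference depends on sex, which called 0% of all miRNAs, with 20 miRNAs and no member at an unadjusted p under 0.05, and none by DESeq2. miR-15a averaged 225 ± 34.5 CPM in male LOS tongues and 181 ± 40.1 CPM in male control tongues, against 204 ± 18.7 CPM in female LOS tongues and 210 ± 21.5 CPM in female control tongues (interaction 0.33 ± 0.20, adjusted p = 0.979). Among females alone its LOS minus control difference was -0.04.

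The LOS minus control differences of miR-15a, miR-15b and miR-16b were above 0 in kidney and below 0 in skeletal muscle, while miR-15b-3p was below 0 in both. The interaction of tissue and LOS was fitted over LOS 1 to 4 and control 1 to 4 of the 4 tissues. The tongue libraries with those numbers are all female, so the tongue part of this test rests on females alone. edgeR called none of the 7 members and 1.07% of the 374 miRNAs. DESeq2 called 5 miRNAs and no member. Of the members, 3 were under 0.05 without adjustment. How many of all 374 miRNAs were so is not given here, so this count says little about the family. edgeR's unadjusted and adjusted p were 0.00644 and 0.209 for miR-16b, 0.00781 and 0.209 for miR-15a, and 0.0414 and 0.376 for miR-15b. With the presumed fetus, the replicate number within LOS or control, as a block across tissues, the adjusted p was 0.0975 for miR-16b and 0.145 for miR-15a. A contrast of kidney and skeletal muscle alone, added after these values were seen, gave a kidney minus skeletal muscle difference in LOS effect of 0.54 ± 0.15 for miR-15a (95% interval 0.23 to 0.85), 0.43 ± 0.13 for miR-16b and 0.42 ± 0.14 for miR-15b. Their adjusted p was 0.178 for miR-15a, 0.178 for miR-16b and 0.248 for miR-15b, and edgeR called 0% of all miRNAs in that contrast, with 36 at an unadjusted p under 0.05 and none by DESeq2.

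**Figure D5:**
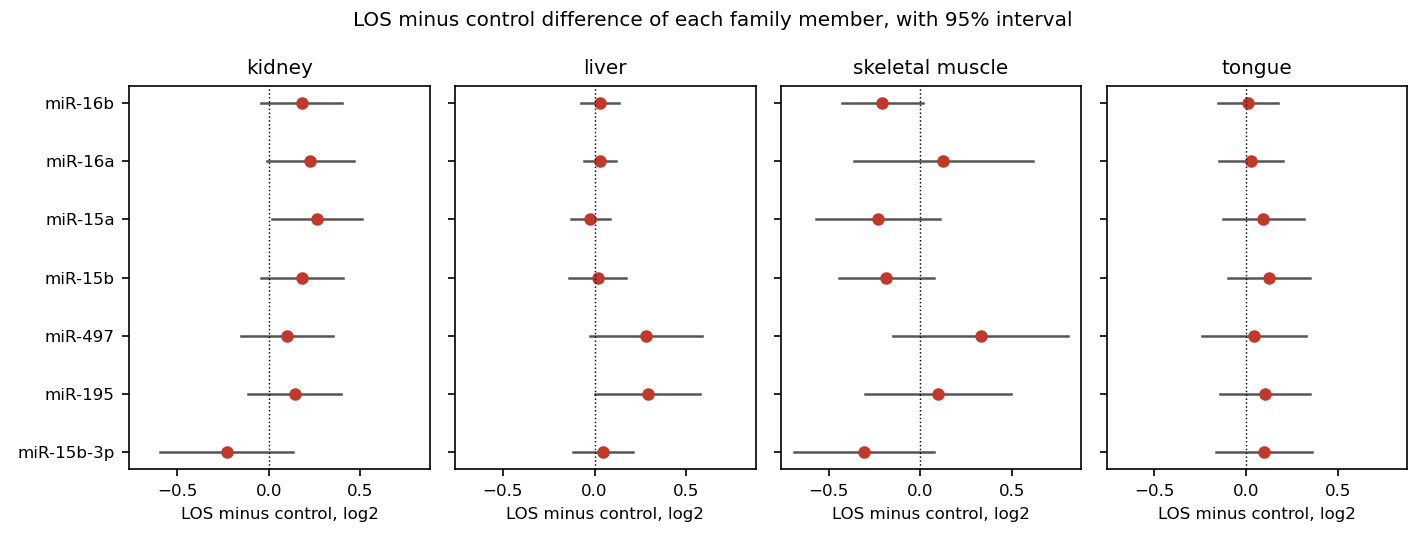
Points are LOS minus control differences (log2) of 7 members in each tissue, with 95% intervals as lines. Most intervals cross 0, the exceptions being miR-15a in kidney (0.02 to 0.51) and miR-195 in liver (0.003 to 0.58), and the intervals are narrowest for the abundant members in liver.

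The relatives and the other cell cycle families gave no calls either. Of the 4 arms of miR-424 and miR-503, none was called by edgeR in any comparison of LOS, ART and controls. The nearest was miR-503-3p in LOS against control liver (0.45 ± 0.12, adjusted p = 0.0885), where 4 of 4 arms were above controls with a median of 0.24, against 0.01 over all miRNAs. No arm of the miR-17 seed family or of miR-34 and miR-449 was called in those comparisons. For the miR-17 seed family in liver, 10 of 10 arms were below controls in LOS with a median of -0.05.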

How the data were processed

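Small RNA libraries were made from 2 µg of total RNA with an Illumina TruSeq kit and a gel cut at 140 to 160 bp, per the labels' protocols. The authors deposited raw read counts per mature miRNA and precursor in 1 table per tissue. Bowtie and the bovine build UMD3.1 are named for all tissues and cutadapt 1.18 for tongue alone, per the submitters' processing notes. How reads matching several miRNAs were counted is not given in the sources used here.

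Counts were fitted per tissue, or over the 374 miRNAs of all tables, with edgeR 4.0.16 (TMM factors, quasi-likelihood F-test) in R 4.3.3. The liver fit held all 3 groups and the tongue fit had sex as a term. Its filter for low counts removed no miRNA. p-values were adjusted by Benjamini-Hochberg over every miRNA tested. An SE is the log2 difference divided by the square root of F, and 95% intervals use the t distribution with the fit's degrees of freedom. CPM is the count for every 1000000 listed reads, without TMM factors. DESeq2 1.42.0, other scalings and filters, a summed miR-16 row, a replicate block and leaving out libraries were tried. The fits were tested on simulated data with larger changes than the members' LOS differences. That test therefore does not show whether differences as small as these could be found.

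All rows the family rule found were named, with miR-424, miR-503 and the 3 nearest profiles of each guide strand. Members and lists were chosen with earlier results of these data known. Same-numbered libraries of 1 group in different tissues, presumed to be 1 fetus, deviated together with a median correlation of 0.157 over 49 pairs (-0.43 to 0.61). Within a tissue the numbers of LOS and control libraries did not pair. Those of ART and control livers correlated at 0.122 to 0.260 in all 4 pairs, and in 3 of them the own number was the best match. The main liver fit did not pair them, and only the alternative fit with the replicate number as a block did.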

Additional observations from a re-analysis of the deposited data

Results flagged for a closer look

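Among 78 group-by-member checks of a single library standing apart from its group, of which chance flags about 1 in 20, 4 were met. miR-15b in kidney control 1 was 93.9 CPM, with the other kidney controls at 68.3 to 71.0 CPM. miR-15a in skeletal muscle control 2 was 101.1 CPM, with the others at 69.8 to 74.7 CPM. miR-195 and miR-497 were both high in tongue control 4, at 72.5 CPM for miR-195 (others 47.1 to 57.7 CPM) and 74.9 CPM for miR-497 (others 48.5 to 58.8 CPM).

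Over 42 pairings of a member with 2 tissues, 2 members had every LOS library on one side of the control mean in one tissue and on the other side in another. This rule was not applied to all miRNAs, so whether 2 members is more than usual cannot be said. miR-15a stood at 0.26 in LOS against control kidney (100.9 against 83.8 CPM) and stood at -0.23 in LOS against control skeletal muscle (66.3 against 79.2 CPM). miR-15b was at 0.18 in kidney (85.6 CPM in LOS against 75.6 CPM in controls) and at -0.19 in skeletal muscle (35.6 CPM in LOS against 41.3 CPM in controls). The interaction of tissue and LOS was tested by edgeR, with adjusted p = 0.209 for miR-15a and 0.376 for miR-15b, and neither passed.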

How the results depend on the processing

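Refits of the LOS, ART and sex comparisons gave 1480 member values, counting each member in each refit and the summed miR-16 row for both miR-16a and miR-16b. None of these values was called, and 46 of them changed sign. Values of members from the same refit are not separate checks. Over all miRNAs, DESeq2 called 3 in kidney, 20 for LOS against control liver, 6 for ART against control liver, 27 for LOS against ART and 10 in skeletal muscle, where edgeR called 0, 7, 0, 15 and 0. Fits of only the 2 liver groups compared called 9, 1 and 6 in that order of liver comparisons, and the replicate block 0, 1 and 3. In skeletal muscle RLE factors, a mean CPM of at least 10 and leaving out the 3 most abundant miRNAs each called 3. Leaving out single libraries gave 0 to 2 calls in kidney, 6 to 12, 0 to 5 and 5 to 20 in the liver comparisons, 0 to 1 in skeletal muscle, 0 to 1 for LOS by sex, 1 to 6 for tissue by LOS and 0 to 1 for kidney minus skeletal muscle. The replicate block changed no call of a member in these comparisons. Signs turned for miR-16a in LOS skeletal muscle (miR-16a and miR-16b summed -0.0507; leaving out libraries -0.0616 to 0.339), for miR-15a in LOS tongue (females only -0.0424), for miR-16b in LOS tongue (females only -0.0735, replicate block -0.0587, leaving out libraries -0.0337 to 0.0501) and for miR-16b in LOS liver (leaving out libraries -0.0064 to 0.0555). Between tissues, 717 of 756 member values, counted in the same way, kept sign and call. Library totals alone called 7 members for tongue against kidney, and gave 0.35 and 0.69 for miR-195 in liver against kidney and skeletal muscle, 0.42 and 0.31 for miR-15b-3p in tongue against kidney and skeletal muscle, 0.42 for miR-16b in tongue against kidney and -0.51 for miR-497 in tongue against liver. They moved the higher and lower calls over all miRNAs to 248 and 92 for liver against kidney, where TMM factors gave 150 and 166. For liver against skeletal muscle they gave 230 and 104, where TMM gave 148 and 174, and for tongue against kidney 222 and 88, where TMM gave 163 and 139. For tongue against liver they gave 118 and 215, where TMM gave 176 and 157, and for tongue against skeletal muscle 221 and 75, where TMM gave 137 and 127. miR-16b in tongue against kidney was 0.0647 with tongue controls 1 to 5, 0.0859 with the replicate block, 0.16 summed with miR-16a and -0.136 to 0.0138 leaving out replicates. miR-16a in kidney against skeletal muscle was 0.65 summed with miR-16b. Leaving out replicates gave -0.138 to 0.0731 for miR-15b-3p and -0.0209 to 0.156 for miR-497 in kidney against skeletal muscle, and for miR-15b-3p -0.0628 to 0.0214 in tongue against kidney and -0.16 to 0.0210 in tongue against skeletal muscle. Causes of these shifts were not tested. Depth limits the minor arms most, with as few as 21 reads of a member in a library.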
